A study of Felis catus with 6 samples.

Results

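The nuclear-encoded respiratory chain subunits are 5 genes of the authors' table of 633 genes: NDUFS8 and NDUFA13 of complex I, COX4I2 and COX7A1 of complex IV, and ATP5PD of the ATP synthase, also called complex V. They were picked by gene name out of that table. The table itself holds only genes that the authors marked as differing between the 2 groups of this study, so every difference between the groups given here for these genes is a description and not a test. All 5 are listed lower with peptide E.

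The cells were PETCC2610, a kidney cell line of the domestic cat, and mRNA was measured by polyA RNA-seq. All 6 libraries came from cells given DOX, the agent used to make them senescent, which the labels do not spell out. In the first group of 3 libraries the cells received DOX alone. In the second, DOX+PeptideE, also of 3 libraries, they received DOX together with peptide E, which by the series title comes from fermentation with Bifidobacterium adolescentis. The labels give no dose, time, genotype or age, 1 cell line was used, and cells without DOX were not analysed here, so no value can be placed against cells before senescence.

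The respiratory chain sits in the inner mitochondrial membrane. Complex I takes electrons from NADH, complex IV passes them to oxygen, and both pump protons that the ATP synthase then uses to make ATP. Each of these machines combines subunits encoded by mitochondrial DNA with many more encoded in the nucleus, and the nuclear genes of several subunits come in isoforms used in different tissues. Tubule cells of the kidney depend heavily on this pathway, and changes of mitochondrial respiration are a known feature of senescent cells.

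The table gives an expression value per gene and library, normalized by the authors, without naming its unit. Whether the values are scaled by transcript length is not stated either. Levels of different genes are therefore set side by side below only as deposited values, and their order says nothing certain about numbers of mRNA molecules. Depth is unknown, and sums over the listed genes ran from 25082 to 39465 per library. The series text calls the libraries biological replicates, but how the cultures were kept apart is not described. In bulk RNA, fewer cells expressing a gene and less of its mRNA per cell cannot be told apart.

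On the deposited scale, ATP5PD had the highest values of the 5 genes. It was followed by NDUFA13, COX7A1, NDUFS8 and, far below, COX4I2. Among the 3 DOX libraries no neighbours in this order overlapped: the lowest COX7A1 value was 147.63 and the highest NDUFS8 value 145.69, the closest approach. In the peptide E libraries COX7A1 and NDUFS8 did overlap, at 99.76 to 156.77 and 92.74 to 121.99. Over all 6 libraries, ATP5PD ranked 9 and NDUFA13 ranked 13 among the 633 listed genes by mean value, COX7A1 ranked 28, NDUFS8 ranked 30 and COX4I2 ranked 265.

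**Figure D1:**
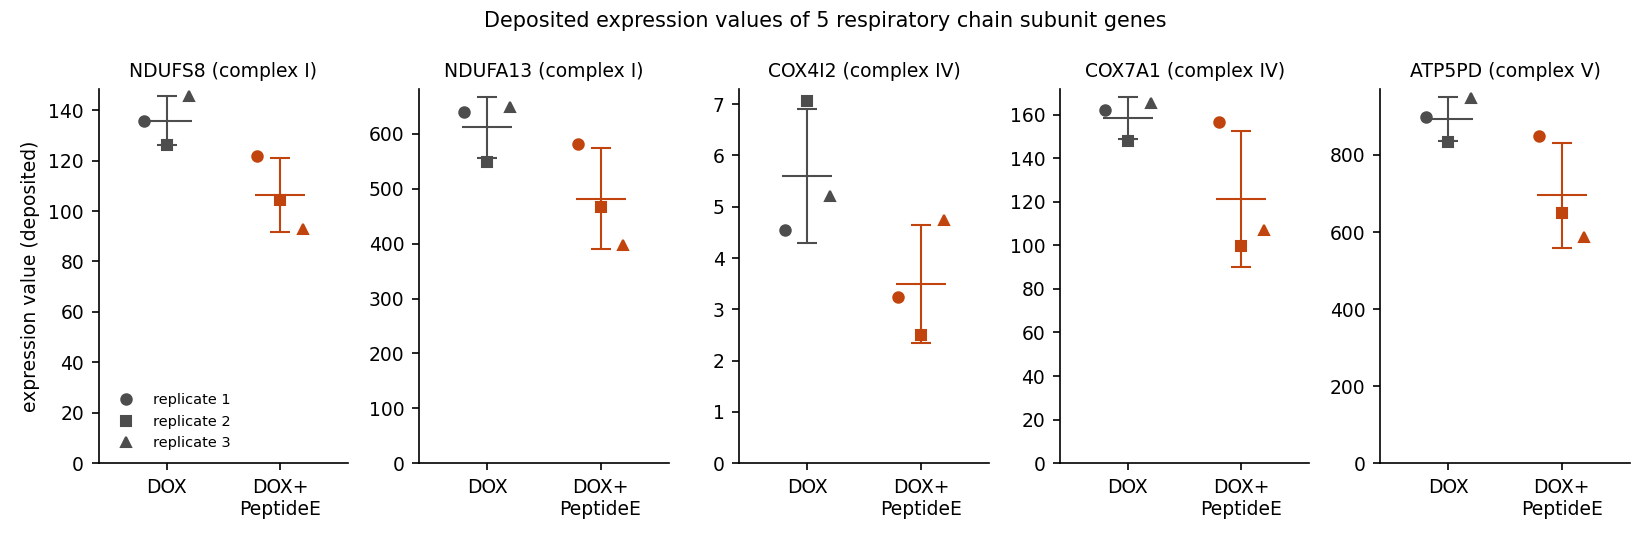
Deposited expression values (vertical axes, each from 0) of the 5 subunit genes in the DOX and DOX+PeptideE groups. Points are libraries, with shape for the replicate number, and horizontal bars with whiskers are means and SD of 3 libraries. Peptide E replicate 1 lies at or near the DOX values in NDUFA13, COX7A1 and ATP5PD, and the group means differ least in proportion in NDUFA13 (1.27-fold) and most in COX4I2 (1.61-fold).

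Complex I was represented by a core subunit and an accessory subunit. NDUFS8 encodes a core subunit that binds iron-sulfur clusters on the path of electrons towards ubiquinone. Its values were 135.66, 126.1 and 145.69 in DOX replicates 1 to 3, and 121.99, 104.44 and 92.74 in peptide E replicates 1 to 3. All 3 peptide E libraries lay below all 3 DOX libraries, with only a narrow gap between peptide E replicate 1 and DOX replicate 2. The means were 136 ± 9.8 with DOX and 106 ± 14.7 with peptide E (SD, n = 3 each), 1.28-fold lower with peptide E.

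NDUFA13, also known as GRIM-19, is an accessory subunit of complex I that has additionally been studied as a mediator of cell death. Its values were 639.38, 548.36 and 649.32 with DOX, and 580.87, 467.67 and 398.14 with peptide E. The groups overlapped, because peptide E replicate 1 lay above DOX replicate 2. The means were 612 ± 55.6 and 482 ± 92.2 (SD, n = 3 each), 1.27-fold lower with peptide E. The 2 complex I genes thus differed between the groups by nearly the same proportion, 21.7% for NDUFS8 and 21.3% for NDUFA13.

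Both complex IV genes encode tissue-specific isoforms. COX7A1 is the isoform of subunit 7A typical of heart and skeletal muscle. Its values were 162, 147.63 and 165.47 with DOX, and 156.77, 99.76 and 107.13 with peptide E. Peptide E replicate 1 lay within the DOX range, while replicates 2 and 3 lay well below it. The means were 158 ± 9.46 and 121 ± 31 (SD, n = 3 each), 1.31-fold lower with peptide E.

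COX4I2 is the second isoform of subunit 4, best known from lung and from cells that respond to low oxygen. Its values were 4.55, 7.06 and 5.2 with DOX, and 3.24, 2.49 and 4.74 with peptide E. The groups overlapped in a different way from the other genes: peptide E replicate 3, not replicate 1, reached into the DOX range, and DOX replicate 2 was the highest of its group. The means were 5.6 ± 1.3 and 3.49 ± 1.15 (SD, n = 3 each), 1.61-fold lower with peptide E. COX4I2 was thus the gene of the 5 with the lowest level and the widest proportional difference between group means. It also had the least agreement among replicates. The ubiquitous counterparts COX4I1 and COX7A2 were not analysed here, so no balance between isoforms can be given.

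The ATP synthase was represented by ATP5PD, which encodes subunit d of the peripheral stalk, the part that holds the catalytic head still while the rotor turns. Its values were 898.6, 834.54 and 949.09 with DOX, and 848.76, 648.39 and 587.18 with peptide E. Peptide E replicate 1 lay just above DOX replicate 2, so the groups overlapped, and replicates 2 and 3 lay below every DOX library. The means were 894 ± 57.4 and 695 ± 137 (SD, n = 3 each), 1.29-fold lower with peptide E.

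Agreement among replicates was closer with DOX than with peptide E. The coefficient of variation (SD over mean) with DOX was 5.97% for COX7A1, 6.42% for ATP5PD, 7.21% for NDUFS8, 9.09% for NDUFA13 and 23.2% for COX4I2. With peptide E it was 13.8% for NDUFS8, 19.1% for NDUFA13, 19.7% for ATP5PD, 25.6% for COX7A1 and 32.8% for COX4I2. Every one of the 5 genes varied more among the peptide E libraries. The same held for 146 of 196 listed genes whose group means both reached 5, and their median coefficient of variation was 8.64% with DOX and 18.6% with peptide E.

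The change was estimated in a linear model with limma on log2(value + 1), a scale that understates changes of low genes such as COX4I2. The log2 fold change of peptide E over DOX was -0.36 for NDUFS8 (standard error 0.15) and -0.36 for NDUFA13 (0.17). For COX7A1 it was -0.41 (0.18), for ATP5PD -0.38 (0.17) and for COX4I2 -0.57 (0.22). The value of COX4I2 depended on the pseudocount: it was -0.69 with 0.1 added and -0.32 with 5 added, and with 5 it was the smallest change of the 5. Complex I, COX7A1 and ATP5PD therefore lay within 0.05 of each other, less than any of their standard errors. The median over the 5 genes was -0.38, against -0.22 over all 499 genes tested and -0.41 over the 257 of those that are listed lower.

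Groups did not overlap, with peptide E lower, in 1 of the 5 genes, NDUFS8. Over all 633 listed genes this was so in 32.7%, and over the 340 listed lower in 60.9%. A Benjamini-Hochberg adjusted limma p under 0.05 with peptide E lower was reached by 1 of the 5, COX4I2, and by 23.6% of the 499 genes tested. In the authors' deposited table, 4 of the 5 have an adjusted p under 0.05, all but COX4I2, and 24.2% of the 633 genes are lower with such a value. Since these genes were listed because of the same difference, nothing can be read from these counts.

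**Figure D2:**
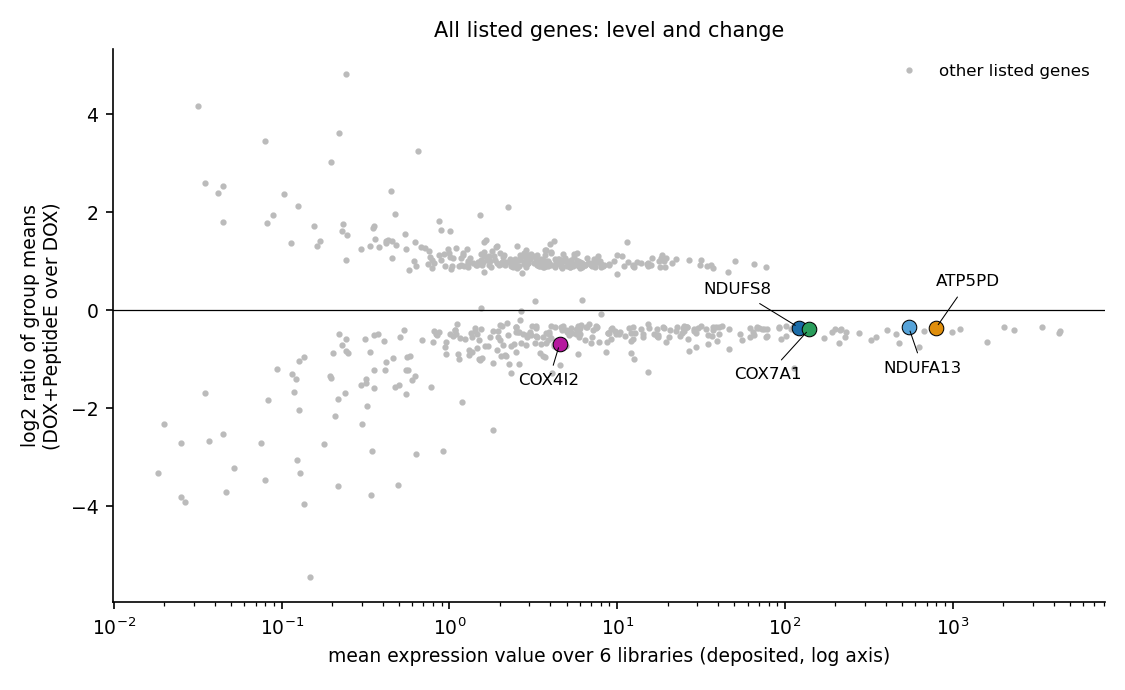
Mean expression value over the 6 libraries (horizontal, log axis) and log2 ratio of the group means, DOX+PeptideE over DOX (vertical), for the 612 listed genes with a value above 0 in both groups. NDUFS8, COX7A1, NDUFA13 and ATP5PD lie on the flat right-hand part of the lower band, near the edge of the band that faces 0, and COX4I2 lies at a mean of 4.55 and further from the line at 0.

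The authors' fold changes are larger than the ratios of the deposited means. In the authors' deposited table the fold change is 1.53-fold lower for NDUFS8, 1.51-fold for NDUFA13, 1.54-fold for COX7A1, 1.53-fold for ATP5PD and 1.79-fold for COX4I2. The smallest decrease that this table lists for any gene is 1.501-fold. NDUFS8, NDUFA13, COX7A1 and ATP5PD were thus just inside the authors' limit, together with 89 other genes listed lower by at most 1.6-fold, and genes just outside it were not analysed here. By the deposited means, those 4 genes differed by less than 1.5-fold, as did 191 of the 328 genes that are listed lower with a value in both groups. The adjusted p-values in the authors' deposited table are 0.00684 for NDUFS8, 0.0125 for NDUFA13, 0.0341 for COX7A1, 0.0082 for ATP5PD and 0.114 for COX4I2.

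The gap between the 2 scales was not the same for every gene. Over the 196 genes whose group means both reached 5, the authors' log2 fold change lay a median of 0.27 below the log2 ratio of the deposited means. For NDUFS8 the deposited ratio was -0.35 and the authors' value -0.61, and for COX4I2 they were -0.68 and -0.84. When 1 factor per library was fitted so that the deposited values followed the authors' fold changes, the limma log2 fold changes moved by a median of -0.23 over the tested genes. They became -0.63 for NDUFS8, -0.63 for NDUFA13, -0.68 for COX7A1, -0.65 for ATP5PD and -0.80 for COX4I2. On this scale the peptide E libraries lay below the DOX libraries in all 5 genes, as in 46.1% of all listed genes and 85.9% of those listed lower, and limma called all 5 lower (49.9% of the 499 tested). The factors, by which the deposited values were divided, were 0.909, 0.910 and 0.908 in DOX replicates 1 to 3. In peptide E replicates 1 to 3 they were unequal, at 1.05, 1.01 and 1.25, so replicate 3 was lowered most. ATP5PD, for example, stood at 988, 917 and 1045 with DOX and at 806, 643 and 469 with peptide E after rescaling. The genes had been selected by those same fold changes, so this is no independent check. It shows that the direction was shared by both scales while the size and the separation of the groups were not.

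**Figure D3:**
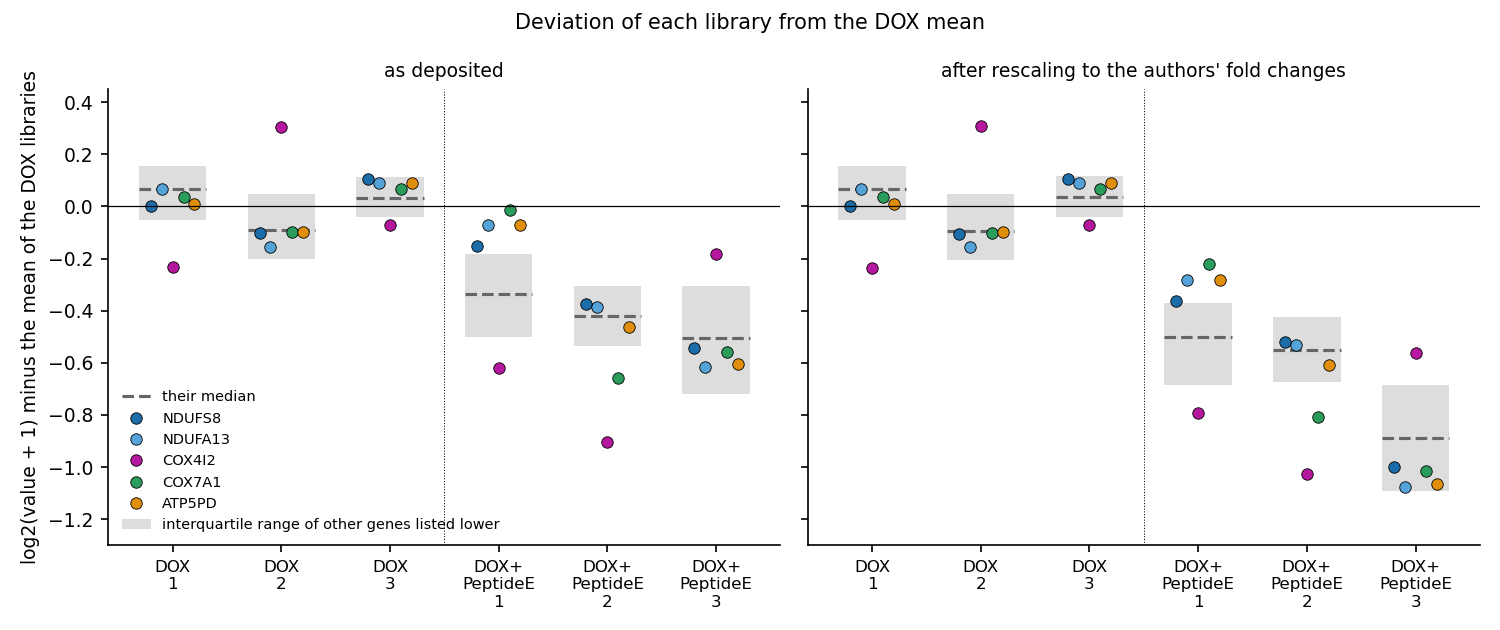
Deviation of log2(value + 1) from the mean of the DOX libraries (vertical) in each of the 6 libraries (horizontal), as deposited on the left and after fitting 1 factor per library to the authors' fold changes on the right. Coloured points are the 5 subunit genes, and grey bars with dashed lines give the interquartile range and median of the other tested genes listed lower. In peptide E replicate 1 as deposited, 4 of the 5 genes lie between -0.15 and -0.01, above the grey bar, and COX4I2 lies at -0.62.

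The plot of deviations by library shows that NDUFS8, NDUFA13, COX7A1 and ATP5PD shared a pattern across libraries. In each of these 4 genes DOX replicate 2 was the lowest of its group and peptide E replicate 1 the highest of its group. As deposited, their deviations from the DOX mean were -0.15 to -0.01 in peptide E replicate 1, -0.66 to -0.37 in replicate 2 and -0.62 to -0.54 in replicate 3. COX4I2 showed another order, with -0.62 in replicate 1, -0.90 in replicate 2 and -0.18 in replicate 3. The median of the other tested genes listed lower was -0.34, -0.42 and -0.50 in the same libraries, so in replicate 1 the 4 genes lay closer to the DOX libraries than that median. In the other listed genes with a mean of at least 100 the median was -0.18 in replicate 1, near the -0.15 of NDUFS8, and -0.46 and -0.69 in replicates 2 and 3.

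This order of libraries was common among abundant listed genes. DOX replicate 2 was lowest of its group and peptide E replicate 1 highest of its group in 27 of the other 33 listed genes with a mean of at least 100. It was also found in 66 of the other 109 genes that are listed lower with a mean of at least 10, and in 118 of all 633. All 37 listed genes with a mean of at least 100 are listed lower. The sum over all listed genes was likewise smallest in DOX replicate 2 among the DOX libraries and largest in peptide E replicate 1 among the peptide E libraries. The part of this shared order in the group difference was not tested.

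Leaving out peptide E replicate 1 made the change of each of the 4 abundant genes larger, and leaving out replicate 3 made it smaller. Without peptide E replicate 1, the limma log2 fold change was -0.46 for NDUFS8, -0.50 for NDUFA13, -0.61 for COX7A1, -0.53 for ATP5PD and -0.54 for COX4I2, and limma called all 5 lower (34.6% of all genes tested in that fit). Without peptide E replicate 3 it was -0.26 for NDUFS8, -0.23 for NDUFA13, -0.34 for COX7A1, -0.27 for ATP5PD and -0.76 for COX4I2. Without peptide E replicate 2, COX7A1 moved most of the 4, to -0.29. NDUFS8 then stood at -0.35, NDUFA13 at -0.34 and ATP5PD at -0.34. When peptide E replicate 2, DOX replicate 2 or DOX replicate 3 was the library left out, limma called 0 of the 5, and COX4I2 stood at -0.40, -0.42 and -0.61. Those fits called 7.63%, 17.3% and 8.78% of all tested genes lower. The sign was negative for each of the 5 genes in all 6 of these fits.

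Ratios within a library among NDUFS8, NDUFA13, COX7A1 and ATP5PD were steadier than the values over all 6 libraries, while those of COX4I2 to them were not. Over the 6 libraries the highest value exceeded the lowest 1.57-fold for NDUFS8, 1.63-fold for NDUFA13, 1.66-fold for COX7A1, 1.62-fold for ATP5PD and 2.84-fold for COX4I2. NDUFA13 as a percent of ATP5PD was 71.2, 65.7 and 68.4 with DOX and 68.4, 72.1 and 67.8 with peptide E, a spread of 1.10-fold. NDUFS8 as a percent of ATP5PD was 15.1, 15.1 and 15.4 with DOX and 14.4, 16.1 and 15.8 with peptide E, a spread of 1.12-fold. Both ratios overlapped between the groups.

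COX7A1 was 18.0%, 17.7% and 17.4% of ATP5PD with DOX. With peptide E it was 18.5%, 15.4% and 18.2%, with replicate 2 lowest and the other 2 just above the narrow range of the DOX libraries. Ratios to COX7A1 were less steady among the peptide E libraries. The SD of the log2 ratio there was 0.22 for NDUFS8 over COX7A1 and 0.19 for NDUFA13 over COX7A1. With DOX these SDs were 0.04 and 0.05. COX4I2 was 0.506%, 0.846% and 0.548% of ATP5PD with DOX and 0.382%, 0.384% and 0.807% with peptide E, a spread of 2.22-fold. None of the 10 pairs among the 5 genes had a log2 ratio that separated the groups. The change of the log2 ratio between groups was 0.00 for NDUFS8 over NDUFA13 and at most 0.05 in size for any pair without COX4I2, while it was -0.19 for COX4I2 over ATP5PD. Against the mean of all 5 genes in a library, COX4I2 varied most, from -4.96 to -4.19 on the log2 scale. ATP5PD varied least, from 2.47 to 2.68. That mean includes COX4I2, so part of its variation returns in the other genes, and their order says little.

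**Figure D4:**
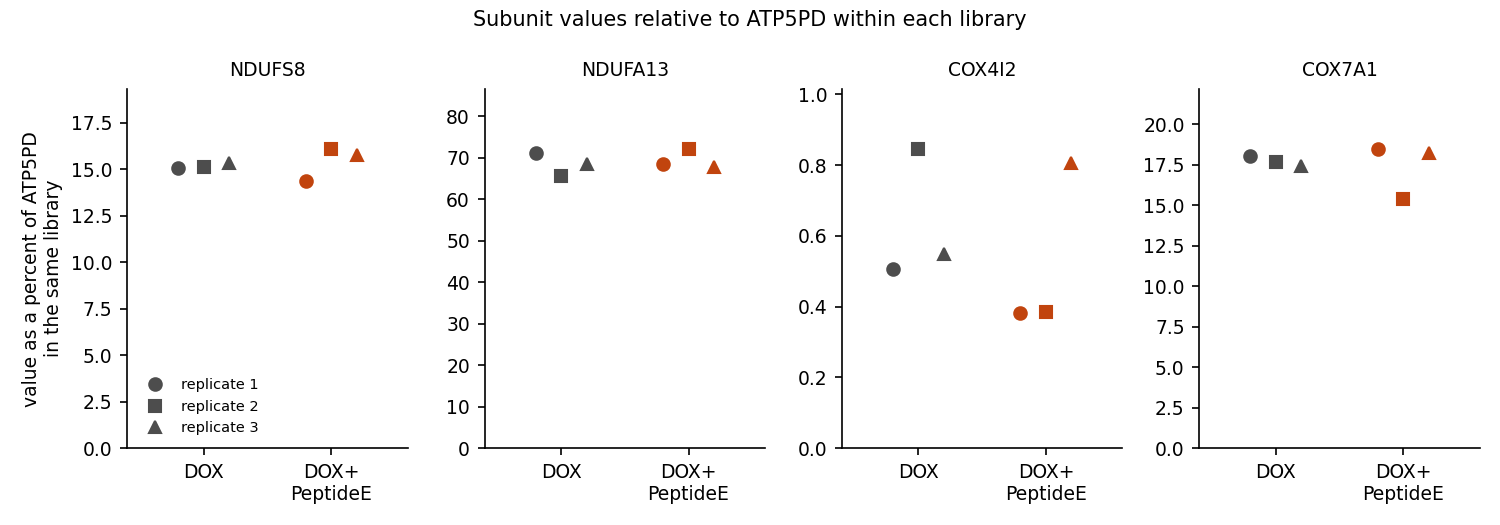
Values of NDUFS8, NDUFA13, COX4I2 and COX7A1 as a percent of ATP5PD in the same library (vertical axes, from 0), by group, with shape for the replicate number. NDUFA13 stays between 65.7% and 72.1% and NDUFS8 between 14.4% and 16.1% in all 6 libraries, while COX4I2 runs from 0.382% to 0.846%.

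To find the listed genes most like each subunit gene, the root-mean-square distance between deviations from the DOX mean was taken over the 6 libraries, among 208 other genes with a symbol and a mean of at least 5. NDUFS8 lay nearest to COPRS, a cofactor of the arginine methyltransferase PRMT5 (distance 0.02 on the log2 scale), and RPS15, a ribosomal protein gene (0.04). NDUFA13 lay nearest to the ribosomal protein genes RPS3 (0.03) and RPS15 (0.03), and ATP5PD to COPRS (0.04) and RPS3 (0.05). The distance between NDUFA13 and ATP5PD was 0.05, and NDUFS8 lay 0.05 from ATP5PD and 0.06 from NDUFA13. Each of these 3 genes thus had a gene outside the respiratory chain nearer to it than any other subunit gene. The 208 candidates far outnumber the subunit genes, which by itself makes a nearer outside gene likely, so nothing is read from this.

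COX7A1 lay at 0.09 from NHP2, a ribonucleoprotein gene, and at 0.09 from ATP5PD. COX4I2 had no close neighbour among these candidates. Its own mean of 4.55 lay below their limit of 5, so genes at its level were not searched. The nearest were IL6, an inflammatory cytokine (0.19), and FABP3, a fatty acid binding protein of heart and muscle (0.21). From the other 4 subunit genes COX4I2 stood at 0.37 to 0.42. Because all listed genes were selected for differing between these groups, such closeness describes a profile and was not tested.

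The rest of the pathway was searched by symbol. Of 107 symbols of nuclear-encoded subunits of complexes I to V and cytochrome c, older names included, only these 5 are listed: 2 of 37 for complex I, 0 of 4 for complex II, 0 of 9 for complex III, 2 of 19 for complex IV and 1 of 36 for the ATP synthase. These counts include older names and symbols absent from the cat annotation. The RefSeq gene table held 37 of the symbols for complex I, 4 for complex II and 5 for complex III. It held 10 for complex IV, 18 for the ATP synthase and 0 of the 2 for cytochrome c. None of 26 symbols of mitochondrially encoded subunits (13 in RefSeq) and none of 53 assembly factors (49 in RefSeq) is listed. The same holds for 15 regulators of mitochondrial biogenesis and 17 genes of the tricarboxylic acid cycle. No listed gene outside the 5 has a description naming a respiratory chain protein. Genes that are not listed were not analysed here, and their absence from a list of selected genes does not show that they were alike in both groups.

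Of 77 mitochondrial ribosomal protein symbols, MRPL12 and MRPL41 are listed, both lower. Of these limma called 1, MRPL41 (23.6% of the 499 tested genes were called lower). MRPL12 had means of 134 ± 20.3 with DOX and 101 ± 22.9 with peptide E (SD, n = 3 each), with overlapping groups, and MRPL41 had 20.3 ± 0.412 and 14.2 ± 3.52, without overlap. Another 2 mitochondrial genes were singled out after their values had been seen. ETFB, a subunit of the flavoprotein that passes electrons from fatty acid oxidation towards ubiquinone, had means of 269 ± 37.3 and 185 ± 45.5 (SD, n = 3 each), 1.46-fold lower with peptide E. MICOS13, a subunit of the complex that shapes the cristae, had means of 245 ± 30.4 and 189 ± 45.6 (SD, n = 3 each), 1.30-fold lower, close to the 1.29-fold of ATP5PD. In ETFB and MICOS13 the groups overlapped through peptide E replicate 1, as in NDUFA13, COX7A1 and ATP5PD.

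Markers of cell types were counted beside the isoform genes. All listed genes were selected on this same contrast. Of the 633, 340 are listed lower, and limma called 23.6% of the 499 tested genes lower. Of 15 striated muscle markers 4 are listed, MYH7, MYL7, TNNI3 and TNNI2, all lower, and limma called the 3 that it tested. Their summed value was 153 to 177 with DOX and 68.9 to 79.3 with peptide E, nearly all of it MYL7, and MYH7 stood at 0.14 or less in every library. The fall of MYL7 from 158 to 70.1 was 2.25-fold, against 1.31-fold lower for COX7A1, the muscle isoform. Listed contractile genes ranged widely. The log2 ratio of group means was -1.27 for TNNI2, -1.20 for MYH7, -1.17 for MYL7 and -0.94 for TNNI3. For TNNC1 and MYL4 it was -0.47 and -0.40, near the -0.39 of COX7A1. These contractile genes are outside the marker list and were not named by a planned rule. Other muscle genes outside that list were not surveyed. None of 10 smooth muscle and pericyte markers is listed. Of 15 tubular epithelial markers 5 are listed, all lower, with a summed value of 864 to 1100 with DOX and 580 to 783 with peptide E, and limma called 3 of them, KRT18, KRT7 and KRT19. Of 10 fibroblast and mesenchymal markers 1 is listed, S100A4, which limma called lower (257 with DOX, 161 with peptide E). None of 5 endothelial and 6 immune markers is listed. No listed marker was at 0 in all libraries, and the markers' part in the values of the subunit genes was not tested.

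In the RefSeq annotation of the assembly F.catus_Fca126_mat1.0, no other gene overlapped any of the 5 loci. Their nearest annotated neighbours are not listed, among them TSSK6 and YJEFN3 beside NDUFA13 and CAPNS1 beside COX7A1. Coordinates are not printed, because the build used by the authors is not given in the sources at hand.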

How the data were processed

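The 6 libraries, in 2 groups of 3, were placed by their titles. Per the labels' protocols, polyA RNA was enriched on beads, fragmented, and sequenced as read pairs on a NovaSeq. Reads passed through fastp 0.19.5 and FastQC 0.11.9, per the submitters' processing notes. The table's name refers to RSEM. For aligner, build, annotation and strand, nothing is given in the sources used here.

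The 6 library columns hold a normalized expression signal deposited by the authors, with 2 decimals and no named unit. The authors' deposited fold ratio, its log2 value, and their p-values and adjusted p-values come with it. Every listed gene is marked significant, with an authors' p-value of at most 0.0498. Depth is unknown, so no counting interval is given, and precision rests on 3 libraries per group.

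Values were transformed as log2(value + 1). The 499 genes whose mean reached 1 in either group were fitted together with limma 3.58.1 (R 4.3.3, variance trend, Benjamini-Hochberg adjustment, threshold 0.05). All 5 subunit genes passed this filter. The script was tested on simulated data. Library factors were fitted by robust least squares to the authors' fold changes over 196 genes. A check of length scaling against protein lengths was planned and not run, since no sequences were at hand, and none is printed.

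Named were the 5 genes, other listed genes of the pathway lists, and the 2 genes nearest to each subunit gene, of which 1 is not reported here. The subunit genes and lists were chosen with earlier results of these data known. Symbols were matched in a RefSeq gene table, which held 74 of the 107 subunit symbols and all 5 subunit genes.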

Additional observations from a re-analysis of the deposited data

How the results depend on the processing

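Across 14 alternative settings, all planned, the log2 fold changes of the 5 subunit genes stayed negative in all 70 values. The changed filters, the fit without a trend and the replicate block cannot alter a gene's fold change, so their values were fixed in advance. The genes had also been listed as lower on this same contrast. Their log2 fold changes moved by more than the spread between replicates in 8 values, all from rescaling the libraries. Median-centring gave -0.65 for NDUFS8, -0.66 for NDUFA13, -0.71 for COX7A1, -0.68 for ATP5PD and -0.87 for COX4I2, and for the first 4 the factors from the authors' fold changes gave -0.63, -0.63, -0.68 and -0.65. Both scalings left 5 of 5 genes without overlap (49.4% of all listed genes after centring, 46.1% with the factors) and 5 called lower by limma (50.1% and 49.9% of all tested). Centring used the median of genes listed for differing between the groups, so neither scaling is an independent check. As deposited, these counts were 1 (32.7%) and 1 (23.6%). A filter at a mean of 5 gave 3 limma calls (29.6% of all tested). Without a filter limma also called 1 gene (25.8%), but it was NDUFS8 in place of COX4I2. Leaving out 1 library gave 1 to 4 genes without overlap (34.6% to 45.7% of all listed) and 0 to 5 limma calls (7.63% to 34.6% of all tested). Log2 fold changes then ran from -0.46 to -0.26 for NDUFS8, -0.50 to -0.23 for NDUFA13, -0.76 to -0.40 for COX4I2, -0.61 to -0.29 for COX7A1 and -0.53 to -0.27 for ATP5PD.

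With the replicate number as a block, log2 fold changes cannot differ from those without it, since each group holds every number. They were -0.36 for NDUFS8 and -0.57 for COX4I2, and limma called 3 genes (24.8% of all tested lower). Deviations from the group means correlated at 0.34 for number 1, -0.04 for number 2 and -0.09 for number 3 across the tested genes. Only number 1 correlated best with its own. With 3 libraries per group these correlations depend on each other, so they cannot show whether the libraries were paired. Without counts, depth limits could not be given.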
